A study of Mus musculus with 21 samples.

Results

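Transcript levels of 3 early growth response genes (Egr1, Egr2, Egr3), 3 orphan nuclear receptor genes (Nr4a1, Nr4a2, Nr4a3), the NFAT genes Nfatc1 and Nfatc2, and the anergy ubiquitin ligase gene Rnf128 were examined in mouse CD4 T cells activated with or without TGFB. The genes were taken by symbol. Cblb, another anergy ligase gene, had no transcript cluster (a group of array probes summarised to 1 value) of its own in the annotation used and was not analysed here, which left 9 of 10 symbols out of 14860 genes tested. Each of the 9 had 1 cluster.

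Splenocytes were cultured from Marilyn mice. Their transgenic T cell receptor recognises the male antigen HY. Total RNA of the sorted cells was hybridised to 21 Affymetrix exon arrays, 1 per sample. Marilyn.Foxp3hCD2 cells carry human CD2 as a reporter of Foxp3, the transcription factor of regulatory T cells. The reporter groups were activated untreated cells (5 arrays) and activated cells given TGFB, which were sorted into an hCD2-negative (5 arrays) and an hCD2-positive fraction (5 arrays). The knockout groups were activated Marilyn.Foxp3-/- cells, untreated (3 arrays) or TGFB-experienced (3 arrays). All 5 groups thus share the Marilyn receptor and activation. The labels give the cell type of the untreated reporter cells and of both knockout groups as CD4+CD2, without the sign that marks the sorted fractions, and give no age, sex or culture time. Replicates are labelled as biological, but no animal or culture is named. A p-value here thus reflects only the spread among arrays within groups, pooled over the groups in the fit.

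Signals from the T cell receptor raise calcium, which activates the phosphatase calcineurin. Calcineurin lets NFAT proteins enter the nucleus, where they act with AP-1 partners on cytokine genes, or without them on genes of anergy, a state in which T cells fail to respond. Egr and Nr4a genes are switched on quickly by the same receptor signals. Egr2 and Egr3 restrain T cell activation and promote anergy genes, Nr4a proteins bind DNA as receptors without a known physiological ligand and can support Foxp3 expression, and Rnf128 encodes GRAIL, a membrane ubiquitin ligase of anergic T cells.

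Promoter sequences of the Nr4a genes and Rnf128 are shown because Nr4a1 and Nr4a3 moved one way after TGFB, Rnf128 the other, and Nr4a2 was not called. Of the 9 genes, 6 were found in the RefSeq promoter table of GRCm38.p6. Each line gives the 250 bases upstream of the annotated start, 5′ to 3′ on the strand of the gene. Capitals mark TGACG on either strand (CGTCA on the strand shown), the half-site of the cAMP response element that CREB and ATF proteins bind. The windows are chr15:101266596-101266845 on the plus strand for Nr4a1, chr4:48045055-48045304 on the plus strand for Nr4a3, chr2:57124004-57124253 on the minus strand for Nr4a2 and chrX:139610370-139610619 on the plus strand for Rnf128.
Nr4a1: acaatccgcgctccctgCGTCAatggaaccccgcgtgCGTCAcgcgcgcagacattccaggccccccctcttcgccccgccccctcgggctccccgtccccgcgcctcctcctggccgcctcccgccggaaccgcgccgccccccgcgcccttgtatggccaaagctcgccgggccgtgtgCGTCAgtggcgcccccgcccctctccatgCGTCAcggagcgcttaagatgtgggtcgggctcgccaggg
Nr4a3: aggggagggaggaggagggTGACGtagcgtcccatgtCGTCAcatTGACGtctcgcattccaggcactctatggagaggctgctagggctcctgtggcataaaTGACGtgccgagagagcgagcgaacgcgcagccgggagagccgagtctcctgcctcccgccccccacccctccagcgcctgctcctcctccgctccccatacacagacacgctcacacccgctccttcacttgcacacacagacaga
Nr4a2: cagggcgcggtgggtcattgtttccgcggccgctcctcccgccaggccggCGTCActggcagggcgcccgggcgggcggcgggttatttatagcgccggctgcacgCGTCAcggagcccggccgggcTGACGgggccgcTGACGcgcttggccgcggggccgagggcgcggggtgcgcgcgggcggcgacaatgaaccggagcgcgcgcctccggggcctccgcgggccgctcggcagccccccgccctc
Rnf128: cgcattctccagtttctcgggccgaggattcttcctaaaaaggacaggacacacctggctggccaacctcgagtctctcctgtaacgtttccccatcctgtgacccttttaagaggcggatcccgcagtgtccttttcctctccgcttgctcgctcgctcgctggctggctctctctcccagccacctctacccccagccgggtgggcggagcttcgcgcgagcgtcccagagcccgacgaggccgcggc
The Nr4a1, Nr4a3 and Nr4a2 windows each held 4 matches and the Rnf128 window held 0. Of 32851 such windows in the table, some of which overlap as alternative starts of 1 gene, 17.8% held at least 1 match and 0.137% at least 4. The NFAT core GGAAA, searched on both strands, was found 0 times in the Nr4a1 and Nr4a3 windows, 1 time for Nr4a2 and 2 times for Rnf128, where 55.6% of all windows hold at least 1. Windows of Egr2, which has several annotated starts, held 0 or 2 half-sites and 0, 1 or 3 NFAT cores. Those of Nfatc2 held 0 half-sites and 1 or 3 cores. Whether any of these matches has a part in the levels was not tested. A match is a stretch of letters and not a measured binding site.

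The deposited values are log2 signals, so a difference of 1 is a 2-fold change in signal. Levels differed in scale between the genotypes: the lower quartile over all clusters was 4.93 to 5.02 for reporter and 5.61 to 5.68 for knockout arrays. The genotypes may thus have been normalized separately, and differences were taken within a genotype. Interquartile ranges ran from 2.01 to 3.14 on reporter arrays, and 4 of them lay under 2.5 (the narrowest was hCD2-positive replicate 3, and the others were replicates 1, 3 and 4 of the hCD2-negative fraction). The T cell identity markers stood well above the lower quartile in every group (9 of 11 measured, per-array means between 9.54 and 10.96). Among them, Cd5 rose in the hCD2-positive fraction and Cd2 and Thy1 fell in the hCD2-negative fraction. Quantile normalization called 5 of the 9 higher and 1 lower in the hCD2-positive fraction, 4 higher and 1 lower in the hCD2-negative fraction and 3 higher in knockout cells. It called 17.8%, 22.9% and 10.8% of all genes in these comparisons. None of the 8 B cell, 10 dendritic cell and macrophage, 6 granulocyte and 3 erythroid markers measured was called in any comparison of TGFB with untreated cells, and their per-array means lay between 4.77 and 6.23. Some single markers stood higher. Cd68 had group means between 7.58 and 8.47, and Cd79b and Elane averaged 7.77 and 7.41 in TGFB-experienced knockout cells. Quantile normalization called 1 B cell marker higher in the hCD2-positive fraction (Cd79b, 0.40, limma adjusted p = 0.0221) and 1 in knockout cells. It called 1 dendritic cell and macrophage marker higher and 1 lower in the hCD2-negative fraction. Of the 3 NK cell markers, whose per-array means lay between 5.67 and 7.46, 1 was lower after TGFB in the hCD2-positive, hCD2-negative and knockout comparisons (Eomes, -0.67, -0.97 and -1.02). Klrd1, another of them, had uncalled differences of 0.08, 1.38 and 2.31 (limma adjusted p = 0.939, 0.0571 and 0.0613), and under quantile normalization it was called higher in the hCD2-negative fraction and in knockout cells (1.84 and 2.56, adjusted p = 0.00236 and 0.0023). Of the CD8 genes, Cd8a rose in the hCD2-negative fraction (2.44 ± 0.27) and in knockout cells after TGFB (2.47 ± 0.35), and Cd8b1 fell in both reporter fractions (-0.95 and -0.74). Under quantile normalization the calls in the hCD2-negative fraction were lost for Cd2 (-0.21, adjusted p = 0.182) and Cd8b1 (-0.25, adjusted p = 0.165). Their part in the results below was not tested. The cluster that Foxp3 shares with the RNA gene Flicr averaged 6.30 in untreated, 6.72 in hCD2-negative and 10.67 in hCD2-positive reporter cells, and 6.94 in untreated and 8.55 in TGFB-experienced knockout cells. The labels do not say which part of Foxp3 is deleted, so this cluster does not check the knockout label. In bulk RNA, fewer cells of a type and less RNA per cell cannot be told apart.

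**Figure D1:**
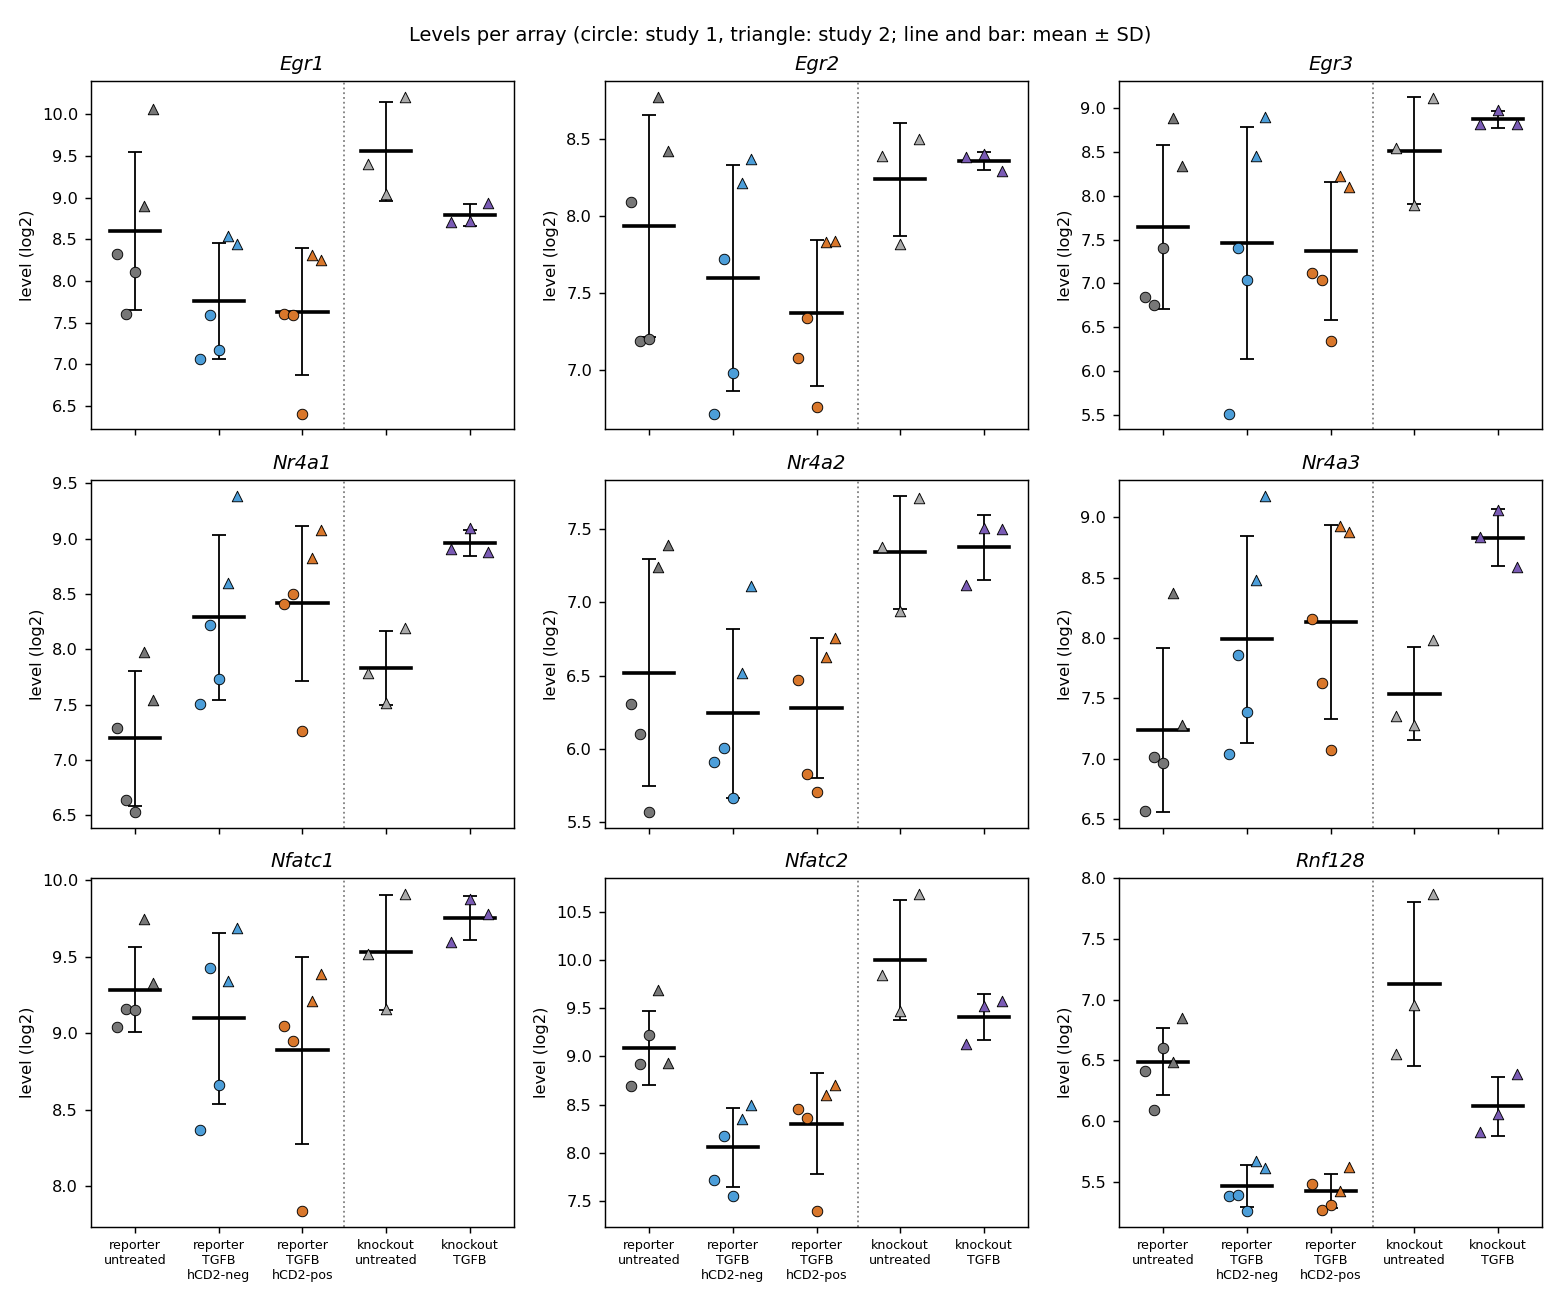
Log2 level of each gene (y axis, its own scale in each panel) on every array, by group (x axis), with the group mean ± SD; circles are study 1 arrays, triangles study 2 arrays, and the dotted line separates the genotypes. Nr4a1 and Nr4a3 stood higher and Rnf128 lower after TGFB in both genotypes, and within reporter groups the study 2 triangles stood above the study 1 circles for the Egr and Nr4a genes.

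The comparison of each TGFB fraction with untreated reporter cells asks what changes with TGFB in cells that turned on the Foxp3 reporter and in cells that did not. Nr4a1 and Nr4a3 rose in both fractions, and Egr1, Nfatc2 and Rnf128 fell in both. Egr2, Egr3, Nr4a2 and Nfatc1 were not called in either. In each fraction 5 of 9 genes were called, 2 higher and 3 lower, by limma at an adjusted p under 0.05. Of all 14860 genes, 11.6% were called in the hCD2-positive comparison (1.94% higher and 9.66% lower) and 18.9% in the hCD2-negative comparison (2.05% higher and 16.9% lower). The median log2 difference over the 9 genes was -0.40 in the hCD2-positive and -0.28 in the hCD2-negative fraction, beside -0.07 and -0.09 over all genes. Quantile normalization changed these medians to -0.11 and 0.10, kept the counts of the hCD2-positive comparison, and gave 3 higher and 2 lower in the hCD2-negative comparison, where 11.3% of all genes were then called higher. Both comparisons use the same untreated arrays, so their likeness is no independent support.

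Nr4a1 encodes Nur77, the orphan receptor widely used as a reporter of T cell receptor signalling. Its levels in untreated replicates 1 to 5 were 7.29, 6.64, 6.53, 7.98 and 7.54. In the hCD2-positive fraction they were 8.41, 8.50, 7.26, 8.83 and 9.08, and in the hCD2-negative fraction 7.51, 8.22, 7.73, 8.60 and 9.39. The groups overlapped, since hCD2-positive replicate 3 and hCD2-negative replicates 1 and 3 lay under the highest untreated array. Within a study, every TGFB array other than hCD2-positive replicate 3 stood above every untreated array. Nr4a1 rose by 1.22 ± 0.23 (2.33-fold, limma adjusted p = 0.00193) in the hCD2-positive and by 1.09 ± 0.23 (2.13-fold, adjusted p = 0.00309) in the hCD2-negative fraction. Within study 1 the differences were 1.24 and 1.00, and within study 2 they were 1.195 and 1.24. The rise was thus of like size in both studies.

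Nr4a3 encodes Nor1, which overlaps with Nur77 in function in T cells. Untreated levels were 6.57, 7.01, 6.96, 8.37 and 7.28, against 8.16, 7.63, 7.07, 8.93 and 8.88 in the hCD2-positive and 7.04, 7.86, 7.39, 8.48 and 9.18 in the hCD2-negative fraction. The groups overlapped, with untreated replicate 4 standing apart from the other untreated arrays at 8.37. Nr4a3 rose by 0.90 ± 0.24 (1.86-fold, limma adjusted p = 0.0189) in the hCD2-positive and by 0.75 ± 0.24 (1.68-fold, adjusted p = 0.0348) in the hCD2-negative fraction. The differences were 0.77 and 0.58 within study 1, and 1.08 and 1.00 within study 2. The calls depended on single arrays: without untreated replicate 1 or 5 the adjusted p was 0.0509 and 0.0508 in the hCD2-positive fraction. In the hCD2-negative fraction it lay between 0.0592 and 0.0911 without untreated replicate 1 or 5 or hCD2-negative replicate 2, 3 or 5.

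Nr4a2, which encodes Nurr1, did not follow them. Its levels ran from 5.57 to 7.39 in untreated cells, from 5.71 to 6.76 in the hCD2-positive fraction and from 5.67 to 7.11 in the hCD2-negative fraction, and the group ranges overlapped almost completely. The difference was -0.24 (95% interval -0.65 to 0.16, limma adjusted p = 0.454) in the hCD2-positive and -0.28 (-0.68 to 0.13, adjusted p = 0.328) in the hCD2-negative fraction. Both intervals lie below the estimates for Nr4a1 and Nr4a3, but the difference between the genes was not tested.

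Egr1 encodes a zinc finger factor induced through the MAP kinase branch of receptor signalling. Its untreated levels were 8.33, 7.60, 8.11, 8.90 and 10.07, against 7.60, 7.59, 6.41, 8.31 and 8.25 in the hCD2-positive and 7.07, 7.59, 7.17, 8.54 and 8.45 in the hCD2-negative fraction. The groups overlapped, and the untreated group was the most spread because of replicate 5 at 10.07. Egr1 fell by 0.97 ± 0.26 (1.96-fold lower, limma adjusted p = 0.0198) in the hCD2-positive and by 0.84 ± 0.26 (1.79-fold lower, adjusted p = 0.0313) in the hCD2-negative fraction. Within study 1 the differences were -0.81 and -0.74, and within study 2 they were -1.20 and -0.99. The calls were near the threshold. The hCD2-positive call was lost without untreated replicate 1 (adjusted p = 0.0547), untreated replicate 5 (0.0534) or hCD2-positive replicate 3 (0.0578). The hCD2-negative call was lost without untreated replicate 1, 3 or 5 or hCD2-negative replicate 1, 3, 4 or 5 (adjusted p between 0.0536 and 0.0823), and under quantile normalization (-0.35, adjusted p = 0.251).

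Egr2 and Egr3 encode the related zinc finger factors linked to anergy. Egr2 ranged from 7.19 to 8.77 in untreated cells, from 6.76 to 7.84 in the hCD2-positive and from 6.72 to 8.37 in the hCD2-negative fraction, with medians of 8.09, 7.34 and 7.72. The ranges overlapped, and the differences of -0.56 ± 0.20 (limma adjusted p = 0.0817) and -0.33 ± 0.20 (adjusted p = 0.259) were not called. Without hCD2-positive replicate 2 the hCD2-positive difference was -0.66 and was called (adjusted p = 0.0487). Egr3 ranged from 5.52 to 8.90 in the hCD2-negative fraction, the widest range of the 9 genes in any group, and differed by -0.28 (95% interval -0.91 to 0.35, limma adjusted p = 0.592) and -0.18 (-0.81 to 0.45, adjusted p = 0.699). A 2-fold change of Egr3 in either direction lies outside both intervals.

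Nfatc2, also called NFAT1, is an NFAT gene that resting T cells already express. Its untreated levels were 8.69, 8.92, 9.22, 9.69 and 8.93. In the hCD2-negative fraction they were 7.72, 8.18, 7.55, 8.35 and 8.50, so that every array lay below every untreated array, as 9.04% of all genes did. In the hCD2-positive fraction they were 8.45, 8.36, 7.40, 8.60 and 8.70, and replicate 5 lay just above the lowest untreated array. Nfatc2 fell by 1.03 ± 0.23 (2.04-fold lower, limma adjusted p = 0.00446) in the hCD2-negative and by 0.79 ± 0.23 (1.73-fold lower, adjusted p = 0.0329) in the hCD2-positive fraction. Differences were -1.13 and -0.88 in study 1 and study 2 for the hCD2-negative and -0.87 and -0.66 for the hCD2-positive fraction. The hCD2-positive call was lost without untreated replicate 2, 3 or 4 or hCD2-positive replicate 3, 4 or 5, with adjusted p between 0.0539 and 0.0989.

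Nfatc1, also called NFAT2, is induced by NFAT itself after activation. Its lowest, median and highest levels were 9.04, 9.16 and 9.75 in untreated cells, 7.84, 9.05 and 9.39 in the hCD2-positive and 8.37, 9.34 and 9.69 in the hCD2-negative fraction. The ranges overlapped, and the differences of -0.40 (95% interval -0.86 to 0.07, limma adjusted p = 0.271) and -0.19 (-0.65 to 0.28, adjusted p = 0.576) were not called. The sign in the hCD2-negative fraction depended on the scaling, since after quantile normalization Nfatc1 was 0.31 higher (adjusted p = 0.0226).

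Rnf128 was the 1 gene of the 9 whose groups did not overlap in either fraction. Untreated levels were 6.41, 6.09, 6.60, 6.49 and 6.85, against 5.48, 5.27, 5.31, 5.42 and 5.62 in the hCD2-positive and 5.38, 5.39, 5.26, 5.67 and 5.61 in the hCD2-negative fraction. Every TGFB array lay below every untreated array. Groups did not overlap in this direction for 6.46% of all genes in the hCD2-positive comparison. Rnf128 fell by 1.07 ± 0.18 (2.10-fold lower, limma adjusted p = 0.000633) in the hCD2-positive and by 1.03 ± 0.18 (2.04-fold lower, adjusted p = 0.000609) in the hCD2-negative fraction. The differences were -1.01 and -1.02 within study 1, and -1.15 and -1.03 within study 2. After TGFB its levels stood only 0.29 to 0.74 above the lower quartile of their array, near the floor of the arrays, so the size of the fall may be understated.

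**Figure D2:**
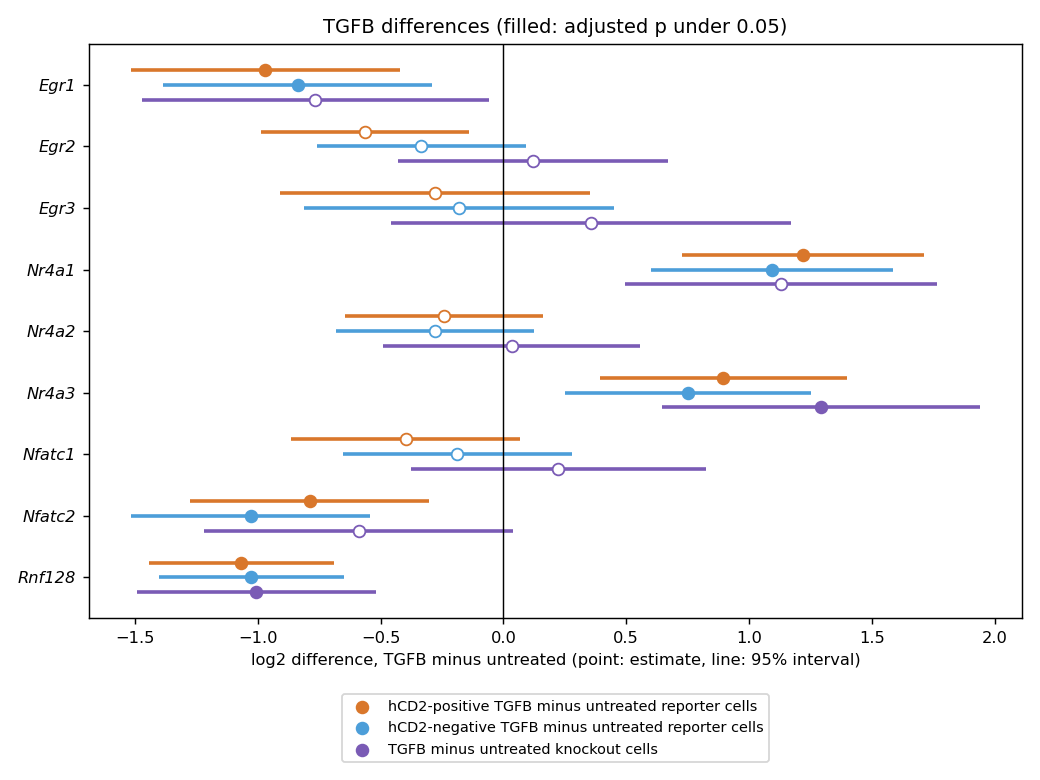
Log2 difference of TGFB from untreated cells (x axis) for each gene (y axis), with the 95% interval from limma, in hCD2-positive (orange), hCD2-negative (blue) and knockout cells (purple); filled points had an adjusted p under 0.05. The intervals of Nr4a1, Nr4a3, Egr1 and Rnf128 lay on the same side of 0 in all 3 comparisons.

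The hCD2-positive and hCD2-negative fractions were compared directly to ask whether the 9 genes differ between TGFB-treated cells with and without the Foxp3 reporter. No difference was detected: limma called 0 of 9 genes, and 0 of 9 had an unadjusted p under 0.05. No gene of the 9 was called in this comparison under any of the 34 alternative settings run. Of all genes, 0.155% were called and 4.17% had an unadjusted p under 0.05. The log2 differences, hCD2-positive minus hCD2-negative, lay between -0.23 for Egr2 and 0.24 for Nfatc2. The 95% interval was -0.37 to 0.62 for Nr4a1, -0.36 to 0.65 for Nr4a3, -0.68 to 0.41 for Egr1 and -0.42 to 0.34 for Rnf128. A 2-fold difference between the fractions lies outside all of the 9 intervals, and smaller differences could not be resolved. The Foxp3 and Flicr cluster differed between the same fractions by far more, with a lowest hCD2-positive array of 9.23 and a highest hCD2-negative array of 7.08.

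The knockout arrays show the TGFB response in cells without functional Foxp3, as labelled. Nr4a3 rose and Rnf128 fell there too, while Nr4a1 was higher on every array but missed the threshold. Limma called 2 of 9 genes, 1 higher and 1 lower. Of all genes, 2.75% were called (0.895% higher and 1.85% lower), and the median over the 9 genes was 0.12 beside -0.03 over all genes.

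Nr4a3 levels were 7.35, 7.28 and 7.98 in untreated and 8.84, 9.06 and 8.59 in TGFB-experienced knockout cells, and every TGFB array lay above every untreated array. Groups did not overlap in this direction for 5.26% of all genes. Nr4a3 rose by 1.29 ± 0.31 (2.45-fold, limma adjusted p = 0.0271). The call was lost without untreated replicate 1 or 2 or TGFB replicate 1, 2 or 3 (adjusted p between 0.0524 and 0.137, differences between 1.17 and 1.41). Nr4a1 levels were 7.79, 7.52 and 8.19 in untreated and 8.91, 9.10 and 8.88 in TGFB-experienced cells, again without overlap. Its difference of 1.13 ± 0.30 had an adjusted p of 0.0532 in limma and was called under quantile normalization (1.29, adjusted p = 2.2e-05). It was also called without untreated reporter replicate 1, hCD2-negative replicate 5, or hCD2-positive replicate 2 or 3, which enter the fit only through the shared spread (adjusted p between 0.0149 and 0.0464).

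Rnf128 levels were 6.55, 6.96 and 7.87 in untreated and 5.91, 6.06 and 6.39 in TGFB-experienced knockout cells. Every TGFB array lay below every untreated array, as for 11.1% of all genes, and untreated replicate 3 stood highest. Rnf128 fell by 1.01 ± 0.23 (2.01-fold lower, limma adjusted p = 0.0214). The call was lost without untreated replicate 3, where the difference was -0.63 (adjusted p = 0.0805), and without TGFB replicate 1 (0.114) or 2 (0.0921). It was also lost when only the knockout arrays entered the fit (limma adjusted p = 0.251). The TGFB arrays lay 0.30 to 0.76 above their lower quartile, so the floor limits this value as well.

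Egr1 lay at 9.41, 9.05 and 10.21 in untreated and at 8.71, 8.72 and 8.94 in TGFB-experienced knockout cells. The groups did not overlap, but the difference of -0.77 ± 0.34 was not called (limma adjusted p = 0.368). Nfatc2 lay at 9.84, 9.47 and 10.68 against 9.13, 9.52 and 9.57, with overlap and a difference of -0.59 (95% interval -1.22 to 0.04, adjusted p = 0.497). The other 4 genes had differences between 0.03 for Nr4a2 and 0.36 for Egr3, none of them called. For all 9 genes the 3 untreated knockout arrays were more spread than the 3 TGFB arrays, with SDs of 0.34 to 0.68 against 0.06 to 0.25.

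The difference between the TGFB responses of reporter and knockout cells was tested as an interaction. No gene among the 9 was called for either fraction, in limma at an adjusted p under 0.05 or at an unadjusted p under 0.05. Of all genes, 0% were called for the hCD2-positive and 0.00673% for the hCD2-negative fraction, and 2.52% and 3.7% had an unadjusted p under 0.05. For the hCD2-positive response minus the knockout response, the 95% interval was -0.71 to 0.89 for Nr4a1, -1.22 to 0.42 for Nr4a3 and -0.68 to 0.55 for Rnf128. These intervals are wide, so sizeable differences in response could have been missed. The calls that were made in reporter cells only, for Nr4a1, Egr1 and Nfatc2, are thus not shown to be particular to reporter cells.

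The labels also give a study number. In each reporter group, study 1 holds replicates 1 to 3 and study 2 holds replicates 4 and 5, while the knockout arrays all belong to study 2. What the number stands for is not given in the sources used here. This comparison was made after the levels were seen. All 6 Egr and Nr4a genes were higher in study 2 than in study 1, on every study 2 array against every study 1 array in each of the 3 reporter groups. Of all genes, 9.56% were separated in this way. Limma called 7 of 9 genes, all higher in study 2, where 23.3% of all genes were called (19.7% higher and 3.69% lower in study 2). The median over all genes was 0.11.

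Egr3 differed most, by 1.65 ± 0.25 (3.14-fold, limma adjusted p = 0.000254), from a study 1 mean of 6.83 to a study 2 mean of 8.48. Egr1 differed by 1.26 ± 0.22, Nr4a3 by 1.22 ± 0.20, Egr2 by 1.01 ± 0.17, Nr4a1 by 1.00 ± 0.19 and Nr4a2 by 0.99 ± 0.16, with adjusted p between 0.0004 and 0.00147. Nfatc1 differed by 0.60 ± 0.18 (adjusted p = 0.0249). Nfatc2 (0.52, adjusted p = 0.0599) and Rnf128 (0.26, adjusted p = 0.227) were not called. For the 3 Egr genes, Nr4a2, Nr4a3 and Nfatc1, the estimate for the studies was larger in size than either TGFB estimate in reporter cells, a contrast that was not itself tested. The study term in the fit keeps this difference out of the TGFB comparisons, which are balanced over the studies.

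**Figure D3:**
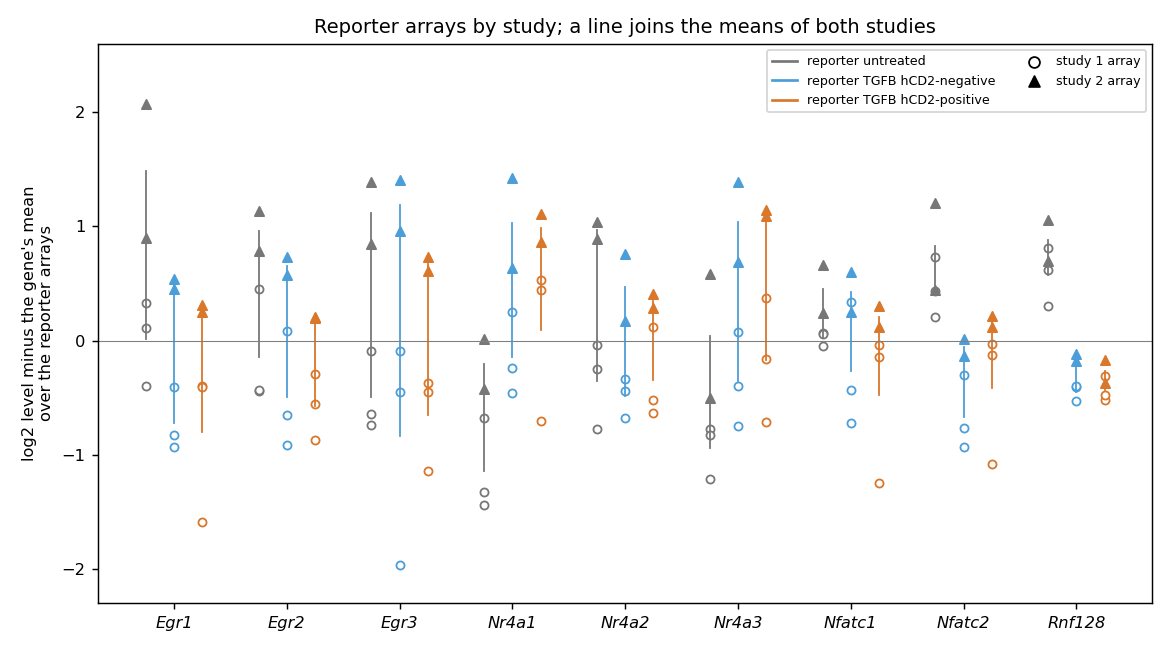
Log2 level of each reporter array minus the gene's mean over the 15 reporter arrays (y axis), by gene (x axis) and group (colour); open circles are study 1, triangles study 2, and a line joins the means of both studies. In each group the triangles lay above all circles for Egr1, Egr2, Egr3, Nr4a1, Nr4a2 and Nr4a3.

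The levels of the 9 genes were also set against each other over the 21 arrays, after centring each gene on its mean in each genotype and study. The arrays share treatment groups and scale, so the values are a description. Pearson's r was 0.88 between Nr4a1 and Nr4a3, 0.84 between Egr1 and Rnf128 and 0.80 between Nfatc2 and Rnf128. It was -0.72 between Nr4a1 and Rnf128, and near 0 between Nr4a2 and both Nr4a1 (0.05) and Nr4a3 (-0.01). Among all genes tested, Egr1 was most like Junb (0.93), a component of AP-1, and Egr3 was most like Nab2 (0.90), which encodes a co-repressor of Egr proteins. Nr4a1 was most like Ephx1 and Actn1 (0.95 each), Nr4a3 like Cyth3 and Tox (0.94 each), and Rnf128 like Emilin2 and Igf2bp3 (0.97 each) and Prdm1 (0.96), the gene of the transcription factor Blimp-1. The closest gene was Prickle3 for Egr2 (0.88), Thumpd2 for Nr4a2 (0.85), Trub2 for Nfatc1 (0.96) and Bckdk for Nfatc2 (0.98).

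Further genes of the same pathways were followed in 4 lists, chosen with earlier results of these data known. The list of Egr and Nr4a partners and immediate early genes had 12 of 14 genes measured. In the hCD2-positive fraction 1 rose and 3 fell, in the hCD2-negative fraction 0 rose and 6 fell, and in knockout cells 0 rose and 1 fell. The share of all genes called in these comparisons was 11.6%, 18.9% and 2.75%. The list medians were -0.48, -0.72 and -0.28, beside -0.07, -0.09 and -0.03 over all genes. Under quantile normalization the medians were -0.15, -0.22 and -0.18, with 1 higher and 3 lower, 1 higher and 4 lower, and 1 higher and 3 lower. The share of all genes called was then 17.8%, 22.9% and 10.8%. Fosl2, an AP-1 gene, fell in all 3 comparisons, with log2 differences of -1.88 ± 0.24, -2.13 ± 0.24 and -2.34 ± 0.31 (limma adjusted p = 5.5e-05, 8.37e-06 and 0.00022). Nab1, the co-repressor gene related to Nab2, fell in the reporter fractions (-1.10 and -0.93), as did Ier3, an immediate early gene (-1.84 and -1.63). Junb and Fos fell in the hCD2-negative fraction (-1.198 and -1.21), and the call of Fos was lost under quantile normalization (-0.89, adjusted p = 0.0647). Jun went the other way and rose by 1.40 ± 0.39 in the hCD2-positive fraction (adjusted p = 0.0241). Its differences of 0.96 in the hCD2-negative fraction and 1.81 in knockout cells were not called (adjusted p = 0.0912 and 0.0627). Quantile normalization called it higher in the hCD2-negative fraction too (1.43, limma adjusted p = 0.0042).

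The calcium, calcineurin and NFAT list had the fewest calls of the 4 lists on the deposited scale. Of 24 genes 21 were measured, 0 rose and 1 fell in each reporter fraction, and 0 were called in knockout cells, where 2 genes and 11.3% of all genes had an unadjusted p under 0.05. On that scale 11.6%, 18.9% and 2.75% of all genes were called in the hCD2-positive, hCD2-negative and knockout comparisons. The medians of this list were -0.12, -0.13 and -0.01. The gene that fell was Ppp3cc, a calcineurin catalytic subunit gene, with differences of -1.32 ± 0.20 in the hCD2-positive and -1.50 ± 0.20 in the hCD2-negative fraction (limma adjusted p = 0.000247 and 4.22e-05), with -0.78 in knockout cells (adjusted p = 0.144). Quantile normalization changed these counts to 5 higher and 1 lower in each reporter fraction and 2 higher and 1 lower in knockout cells, and the share of all genes called to 17.8%, 22.9% and 10.8%. Under it Nfatc3, a further NFAT gene, was higher by 0.68, 0.96 and 0.90, where the deposited scale gave uncalled differences of 0.33, 0.47 and 0.76.

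Of 22 anergy ligases, their regulators and other anergy genes, 19 were measured. The hCD2-positive fraction had 3 higher and 1 lower, the hCD2-negative fraction 3 higher and 2 lower, and knockout cells 3 higher and 1 lower, with medians of -0.08, -0.19 and 0.13. Of all genes 11.6%, 18.9% and 2.75% were called in these comparisons. Nedd4l, a ubiquitin ligase gene like Rnf128, fell in all 3 (-0.95, -1.27 and -0.96, limma adjusted p = 0.00319, 0.00017 and 0.0452). Ndfip1, which encodes an adaptor of such ligases, fell by 0.52 in the hCD2-negative fraction (adjusted p = 0.0483), a call that was lost under quantile normalization (-0.06). Nt5e, which encodes CD73, rose by 3.59 ± 0.36 in the hCD2-positive fraction, 3.19 ± 0.36 in the hCD2-negative fraction and 3.93 ± 0.47 in knockout cells. Dgka, which encodes a kinase that removes diacylglycerol and so dampens receptor signals, rose by 0.85 and 0.74 in the reporter fractions and had a difference of 0.80 in knockout cells (adjusted p = 0.113). Peli1, another ubiquitin ligase gene, rose by 0.58 in the hCD2-negative fraction and 0.89 in knockout cells. Dtx1, an NFAT-induced anergy gene, rose by 0.85 in knockout cells (adjusted p = 0.0475). Izumo1r, which encodes folate receptor 4, rose by 0.77 in the hCD2-positive fraction. Quantile normalization gave 7, 9 and 8 higher and 1 lower in each comparison, with medians of 0.20, 0.32 and 0.30, where 8.39%, 11.3% and 5.77% of all genes were called higher.

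The list of NFAT, Egr and Nr4a targets and receptor signalling markers had the most calls. Of 23 genes 21 were measured, and 3 rose and 11 fell in the hCD2-positive fraction, 2 rose and 9 fell in the hCD2-negative fraction, and 2 rose and 4 fell in knockout cells. The medians were -0.54, -0.63 and -0.12, where 11.6%, 18.9% and 2.75% of all genes were called. Under quantile normalization the medians were -0.49, -0.28 and -0.01. The counts were then 4 higher and 11 lower, 3 higher and 8 lower, and 4 higher and 6 lower, where 17.8%, 22.9% and 10.8% of all genes were called. Csf2, which encodes GM-CSF, had group means of 9.65 in untreated, 4.49 in hCD2-positive and 4.59 in hCD2-negative reporter cells, and 11.28 and 5.78 in untreated and TGFB-experienced knockout cells. Both TGFB means of the reporter cells lay under the lower quartile of the arrays, so the size of that fall may be understated. Il4, a helper cytokine gene, also fell in all 3 comparisons (-2.42, -2.63 and -2.79). So did Havcr2, an inhibitory receptor gene (-2.17, -2.11 and -2.58), and Tnfrsf9, a costimulatory receptor gene (-1.85, -2.48 and -1.97). The Havcr2 means after TGFB (4.31, 4.37 and 5.37) lay under the lower quartile of the arrays of their genotype, so the size of its fall may be understated too. The Il4 means after TGFB (5.41, 5.20 and 5.97) stood little above that quartile, so the floor may limit its fall as well. Tnf (-1.25 and -1.75), Irf4 (-1.38 and -1.91) and Myc (-0.93 and -1.36) fell in both reporter fractions. Against these, Ikzf2, which encodes Helios, and Tox, which encodes a nuclear factor linked to chronic receptor signalling, rose in all 3 comparisons, Tox by 1.55, 1.58 and 2.09 (limma adjusted p = 8.67e-05, 4.06e-05 and 0.000159). Cd5, whose level follows receptor signal strength, rose by 1.40 in the hCD2-positive fraction (adjusted p = 0.00316) and had a difference of 0.65 in the hCD2-negative fraction (adjusted p = 0.119).

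**Figure D4:**
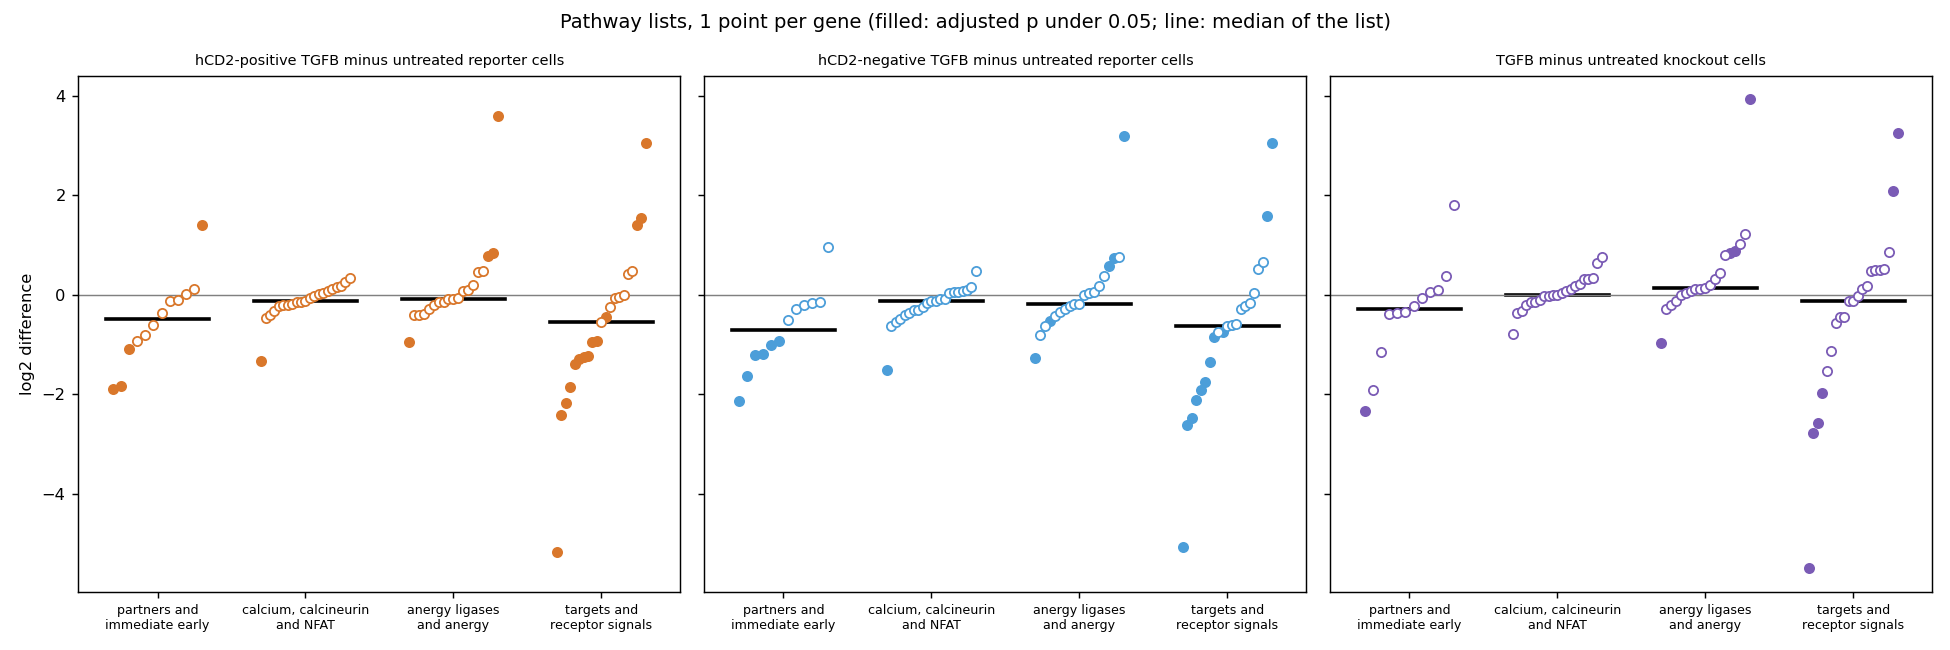
Log2 difference of TGFB from untreated cells (y axis) for each measured gene of the 4 pathway lists (x axis), in hCD2-positive, hCD2-negative and knockout cells (panels from left to right); filled points had an adjusted p under 0.05 and the black line is the list median. The targets and receptor signalling markers had 14, 11 and 6 filled points, and the calcium, calcineurin and NFAT list had 1, 1 and 0.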

How the data were processed

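Per the submitters' processing notes, the authors summarised the arrays with RMA in Affymetrix Expression Console 1.2 on build mm8, and the deposited values are log2 signals, 1 per transcript cluster and array. The table holds 23332 clusters and 0 columns of other samples. Clusters were named from an annotation of the platform: 14996 carried 1 symbol, 1019 several and 7317 none. The cluster with the highest mean was kept for 135 genes with several, leaving 14860 genes.

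All 21 arrays entered 1 fit with limma 3.58.1 in R 4.3.3, with a mean per group and a term for study number. P-values are 2-sided and Benjamini-Hochberg adjusted over all 14860 genes, with a call at 0.05. Values with ± are standard errors of log2 differences, unless given as SD. Arrays carry no read depth, so the number of arrays limits the precision. The fit was tested on simulated data. Alternatives were other scalings and priors, array weights, no study term, a replicate block, each study alone, fewer genes, all clusters, and leaving out arrays.

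The genes, the lists and the rule for naming genes (all 9 members, per comparison and list the 5 genes of smallest p, the 3 genes most like each member, and markers) were chosen with earlier results of these data known. Ndfip1, Tnf, Irf4, Myc, Cd5, Cd2, Thy1, Cd8b1 and Eomes are named because they were called in a comparison, after their values were seen. Promoter counts use RefSeq windows of GRCm38.p6. No sequence is shown for the other members.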

Additional observations from a re-analysis of the deposited data

Results flagged for a closer look

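On hCD2-positive replicate 3, Nfatc1 lay at 7.84, while the other 4 arrays of the group lay between 8.95 and 9.39. Nfatc2 lay at 7.40 on the same array, against 8.36 to 8.70 on the others. Both gaps exceed Dixon's critical value for 5 arrays. That array also has the narrowest interquartile range of the 21 (2.01), and its part in these values was not tested. In all, 27 groups of values were examined, and chance alone passes this limit in about 1 of 20.

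The Egr2 differences had opposite signs in the hCD2-positive fraction and in knockout cells, but neither was called. Every hCD2-positive array lay below the untreated reporter mean, and every TGFB-experienced knockout array lay above the untreated knockout mean. The difference of the responses was -0.68 (limma unadjusted p = 0.0529, adjusted p = 0.998), so it did not pass the test.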

How the results depend on the processing

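In the hCD2-positive comparison the count of called genes fell from 5 to 2 with only the arrays of the groups compared, 2 without the study term, 1 in study 1 alone, 0 in study 2 alone and 3 without the 4 narrow arrays. In the hCD2-negative comparison it fell from 5 to 2 without the study term, 1 in study 1 alone, 0 in study 2 alone and 3 without the 4 narrow arrays. Over all genes, the main fit called 1725 and 2811 in these comparisons. The counts were 1233 and 1972 without the study term and 279 and 532 in study 1 alone. They were 208 and 441 in study 2 alone and 1585 and 1010 without the 4 narrow arrays. In knockout cells the count for the members fell from 2 to 1 without the study term (Rnf128) and to 1 in study 2 alone (Nr4a1). Over all genes, 408 were called in the main fit, 254 without the study term and 365 in study 2 alone. With only the knockout arrays the count stayed at 2, but Rnf128 was lost (limma adjusted p = 0.251) and Nr4a1 was gained (0.0355). Array weights called 2 genes (Nfatc1 and Nfatc2) instead of 0 in the hCD2-negative response minus the knockout response. That setting called 3293 of all 14860 genes in this comparison, against 1 in the main fit. The 2 calls are thus near its share over all genes. Nfatc1 in the hCD2-negative fraction reversed to 0.31 under quantile normalization, over all arrays or within genotype; the cause was not tested. Leaving out 1 array gave 3 to 6 called genes in the hCD2-positive, 3 to 5 in the hCD2-negative and 0 to 3 in the knockout comparison, 6 to 8 between studies and 0 in the others. Between studies, 18.3% to 26.3% of all genes were called in those fits. The count of called members was 3 without untreated reporter replicate 1 or 5, hCD2-positive replicate 3 (hCD2-positive comparison), or hCD2-negative replicate 3 or 5 (hCD2-negative comparison). The knockout count was 0 without TGFB replicate 1 or 2 and 1 without TGFB replicate 3 or untreated replicate 1, 2 or 3. Nr4a1 and Rnf128 kept their calls in both reporter comparisons, and Nfatc2 in the hCD2-negative, in all 21 settings that leave out 1 array.

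With the replicate block, 5 genes were called in the hCD2-positive, 4 in the hCD2-negative (Nr4a3 lost) and 2 in the knockout comparison (Nr4a1 and Rnf128). That setting called 1982, 3388 and 516 of all 14860 genes in these comparisons. Of 18 same-numbered pairs 6 correlated above 0.1 (lowest -0.30, highest 0.73), and the numbers were not taken to pair the samples in the main fit. Levels were centred within group and study. Study 2 has 2 arrays per reporter group, so replicates 4 and 5 give the same value by construction. Between the TGFB fractions, replicates 2 to 5 correlated at 0.60 to 0.73 and replicate 1 at -0.30, so a pairing of these fractions remains possible.

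Centring each array on its median moved the median of all genes from -0.07 to 0.09 in the hCD2-positive and from -0.09 to 0.11 in the hCD2-negative comparison. Lower genes made up 83.2%, 89.2% and 67.4% of calls on the deposited scale in the hCD2-positive, hCD2-negative and knockout comparisons, and 52.7%, 50.7% and 46.8% after quantile normalization. Low signals limit Rnf128, Csf2, Havcr2 and Il4, among others.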
